A study of Mus musculus with 4 samples.

Results

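The genes of the constitutive proteasome were read in polarized CD4+ T cells with and without the kinases MEK1 and MEK2. They were taken by symbol, as every gene whose symbol starts with Psma, Psmb, Psmc, Psmd, Psme, Psmf or Psmg followed by a digit, without the immunoproteasome subunits Psmb8, Psmb9 and Psmb10 and without pseudogenes. The rule found 47 of the 54752 genes listed, and 45 of the 47 had enough counts to be tested, among 14330 genes tested in all. The 45 are the 7 genes of the core alpha ring, the 7 of the core beta ring, 6 ATPases and 11 other subunits of the regulatory particle, 7 assembly chaperones, 6 genes of alternative activators or of an inhibitor, and Psmc3ip. Psmc3ip shares the start of its symbol but encodes a meiotic recombination factor and is not a proteasome subunit.

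Both groups were naïve CD4+ T cells of the mouse spleen, purified with a magnetic kit and cultured under conditions that favour T follicular helper (Tfh) cells, with 2 libraries (replicates 1 and 2) in each group. One group was WT, for which the sources do not say whether the mice carried Cre or floxed alleles, and the other was Mek1/2-tKO, from C57BL/6 mice that were Cd4-Cre+ and carried both Map2k1 fl/fl and Map2k2 fl/fl, in which Cre is driven by Cd4 and so acts in T cells from the thymus onward. Both received plate-bound anti-CD3, anti-CD28, IL-6 and blocking antibodies to TGF-β, IFN-γ, IL-4 and IL-2, and viable cells were re-sorted on day 3 for RNA sequencing. The ages of these mice are not given, nor is it said whether the libraries of a group came from separate animals, so p values measure the spread between these libraries, which may be technical. As a check of the genotype, Map2k1 had 182 and 187 CPM (read counts scaled to a common library size) in WT and 97.99 and 105 CPM in Mek1/2-tKO libraries, while Map2k2 had 155 and 165 CPM in WT and 172 and 182 CPM in Mek1/2-tKO. A count over the whole gene does not separate transcripts that lack the floxed exons from complete ones.

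The proteasome degrades proteins that carry ubiquitin chains. Its core particle is a barrel of stacked rings, with outer alpha rings that gate the entrance and inner beta rings that carry the proteolytic sites of Psmb5, Psmb6 and Psmb7. The regulatory particle caps the core, where its non-ATPase subunits bind and deubiquitinate substrates and its ring of ATPases unfolds them. Activated T cells grow and divide quickly and rely on this machinery for protein turnover, and interferon-γ makes cells exchange the catalytic subunits for Psmb8, Psmb9 and Psmb10 and raise the activator made of Psme1 and Psme2.

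Library totals lay between 16330802 and 18931090 counts, and the genes chosen took 0.931 and 0.935% of them in WT and 0.997 and 0.956% in Mek1/2-tKO. Mitochondrial genes took 1.62 and 1.56% of the counts in WT and 2.24 and 1.99% in Mek1/2-tKO, and the part of this difference in the values below was not tested. The thresholds were 0.05 for the p adjusted after Benjamini-Hochberg, in edgeR's quasi-likelihood test, and 1.5 for the fold change. In the same libraries markers of other cell types moved with the genotype. All 11 B-lineage markers rose past both thresholds and summed to 1264 to 1285 CPM in WT and 6716 to 6759 CPM in Mek1/2-tKO. All 7 NK-cell markers rose as well (96.9 to 100.2 against 623 to 680 CPM), as did 6 of 6 CD8 and gamma-delta T-cell markers (63.4 to 74.3 against 378 to 421 CPM) and the 5 myeloid markers tested of 8 (1.33 to 1.76 against 15.7 to 22.6 CPM over the list). Adgre1 and S100a8 were at 0 in both WT libraries. Of 10 alpha-beta T-cell markers, 4 were lower and 1 higher past both thresholds (2855 to 2863 against 2474 to 2648 CPM). Cd4 itself had 297 and 289 CPM in WT and 18.8 and 25.1 CPM in Mek1/2-tKO (log2 fold change -3.73), so that the libraries labelled Mek1/2-tKO had little of the RNA that defines the labelled cell type. The part of these cells in the values of the proteasome genes was not tested, and in bulk samples fewer cells of a type and less RNA per cell cannot be told apart.

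The proteasome genes did not move as 1 block. Past both thresholds in edgeR's quasi-likelihood test, 3 of the 45 tested genes were higher in Mek1/2-tKO (Psme1, Psme2 and Psme2b) where 19.3% of all tested genes were, and 2 were lower (Psme4 and Psmd1) where 16.4% of all tested genes were. The same test with no fold change threshold gave 19 genes higher, 42.2% of the 45 against 27.8% of all tested genes, and 7 lower, 15.6% against 27.2%. The other 19 did not pass. By levels alone, 28 genes had both Mek1/2-tKO libraries above both WT libraries (39.5% of all tested genes did) and 8 had both below (38.8% of all), and 9 overlapped. The median log2 fold change of the 45 genes was 0.17, beside 0.02 for all genes tested. Taken by subcomplex the medians ran from 0.40 in the core beta ring through 0.28 in the chaperones, 0.22 in the core alpha ring and 0.11 in the ATPases to -0.04 in the non-ATPase subunits.

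**Figure D1:**
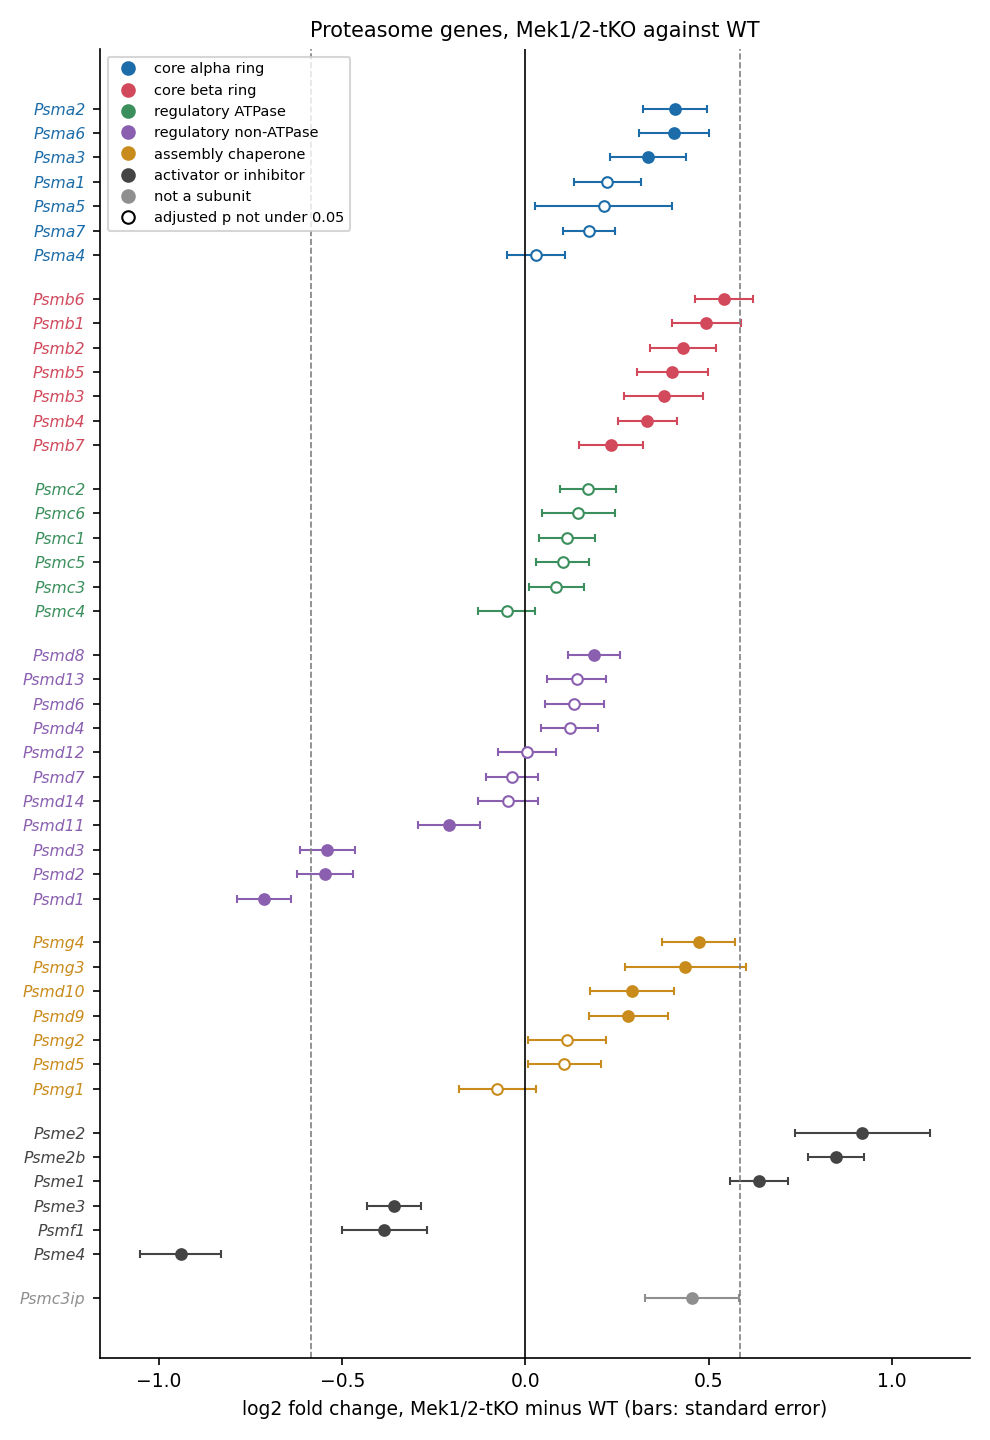
Log2 fold change (horizontal axis, Mek1/2-tKO minus WT) of each of the 45 tested genes with its standard error, grouped by subcomplex. Filled points passed an adjusted p under 0.05 in edgeR, and dashed lines mark a fold change of 1.5. All 7 beta ring genes lie between 0 and the dashed line on the right, and Psme4 (-0.94) and Psmd1 (-0.71) lie beyond it on the left.

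Transcript length moved with these values. Over all genes tested, short transcripts were higher and long ones lower in Mek1/2-tKO. The Spearman correlation between log2 fold change and transcript length was -0.43 across 14326 genes, which share the same 4 libraries. The transcript taken was the one with the longest coding sequence, and the shortest of these where several tied. For genes without a coding sequence it was the longest transcript. Among the 45 proteasome genes the correlation was -0.58. Genes with transcripts up to 1000 bases had a median log2 fold change of 0.55 over all 2658 such genes, and the 9 proteasome genes among them had 0.44, with 2 of the 9 above the median of their length class. From over 1000 to 2000 bases the medians were 0.21 over all genes and 0.13 over 26 proteasome genes, 9 of them above the class median. In the 3 longer classes 5 of 10 were above it, so that 16 of the 45 genes in all lay above the median of genes of like length. The transcript length trend of all genes was then taken out (the length step), which was added once the values had been seen. The 45 genes then had a median of -0.03, and 25 of them were below 0. With the trend on exon length, the total length of a gene's exons, out in its place, the median was 0.06 and 18 were below 0. Values after the transcript length step are given below for the groups and for genes that moved. Where the exon length step gave another picture, some of its values are added. The part of length in the differences was not tested.

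**Figure D2:**
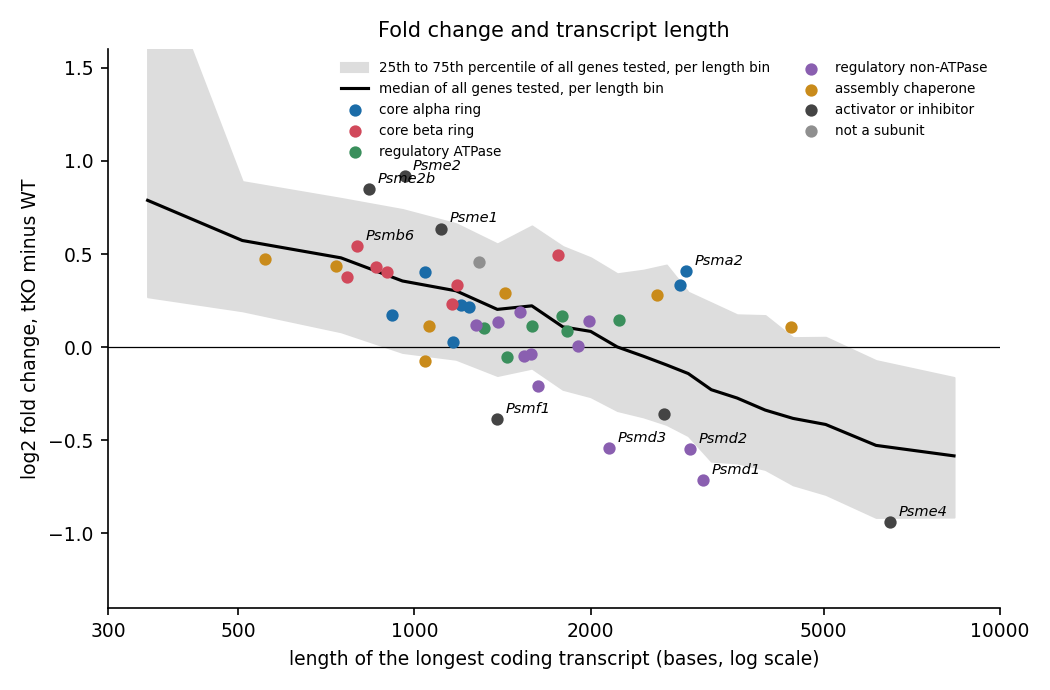
Log2 fold change (vertical axis) against transcript length in bases (horizontal axis, log scale) for the proteasome genes (points). The axis label "longest coding transcript" stands for the transcript with the longest coding sequence. The line and the grey band are the median and the 25th to 75th percentiles of all genes tested in 20 bins of about equal size, and the band runs past the top of the plot for the shortest transcripts. Most proteasome genes follow the falling line, with Psme1, Psme2 and Psme2b among those above it and Psmd1, Psmd2, Psmd3 and Psmf1 among those below.

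The core alpha ring, whose 7 subunits form the gate of the barrel, was higher in sum. Its genes added up to 1477 and 1499.6 CPM in the WT libraries, against 1891 and 1643 CPM in the Mek1/2-tKO libraries. Both Mek1/2-tKO libraries were above both WT libraries, and replicate 1 was the higher of the pair. Of the 7 genes, 3 rose at any fold change (Psma2, Psma6 and Psma3, with log2 fold changes of 0.41, 0.40 and 0.33 and adjusted p of 0.00131, 0.00276 and 0.0142 in edgeR), and 0 passed both thresholds. At any fold change 27.8% of all tested genes were higher, and 19.3% were higher past both thresholds. Psma2 (chromosome 13, 14613240 to 14674236, GRCm38), which moved most, had 224 and 234 CPM in WT and 330 and 278 CPM in Mek1/2-tKO. Psma4, which moved least, had 200.5 and 202 CPM in WT and 217 and 194 CPM in Mek1/2-tKO, so that the groups overlapped (log2 fold change 0.03, standard error 0.08). Psma1 (0.22) and Psma7 (0.17) had adjusted p of 0.0519 and 0.0556 in edgeR, close to the threshold, and Psma5 (0.21, standard error 0.19) was counted on few reads. The call of Psma3 was lost with library size alone (0.25) and without WT replicate 1 (0.35) or WT replicate 2 (0.31). Without Mek1/2-tKO replicate 2, 6 of the 7 genes passed and the median of the ring was 0.39 in place of 0.22, and without replicate 1 the median was 0.15. With the transcript length trend out the ring had a median of -0.03, with 4 of 7 genes below 0. Psma2 (0.55) and Psma3 (0.46), which have the longest transcripts of the ring, stood highest. With the exon length trend out in its place the median was 0.11, with 2 of 7 genes below 0.

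The core beta ring, which holds the proteolytic sites, was the subcomplex in which all tested genes passed at any fold change in 1 direction. All 7 of its genes were higher, where 27.8% of all tested genes were, with log2 fold changes from 0.23 (Psmb7) to 0.54 (Psmb6). None reached a fold change of 1.5. In each of the 7 both Mek1/2-tKO libraries were above both WT libraries, as they were in 39.5% of all tested genes. The ring summed to 1564 and 1584 CPM in WT, against 2259 and 1918 CPM in Mek1/2-tKO, so that the 2 Mek1/2-tKO libraries differed from each other by more than the WT libraries did. Without Mek1/2-tKO replicate 1 its median log2 fold change was 0.25 in place of 0.40, and without replicate 2 it was 0.53. With WT replicate 1 left out 4 of the 7 still passed, and with each of the other libraries left out 6 or 7 did. Its transcripts are short, and with the transcript length trend out its median was 0.06, from -0.03 to 0.38. Psmb1, whose transcript is the longest of the ring, was at the top. With the exon length trend out in its place the median was 0.19, from 0.03 to 0.63, with 0 of the 7 genes below 0.

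**Figure D3:**
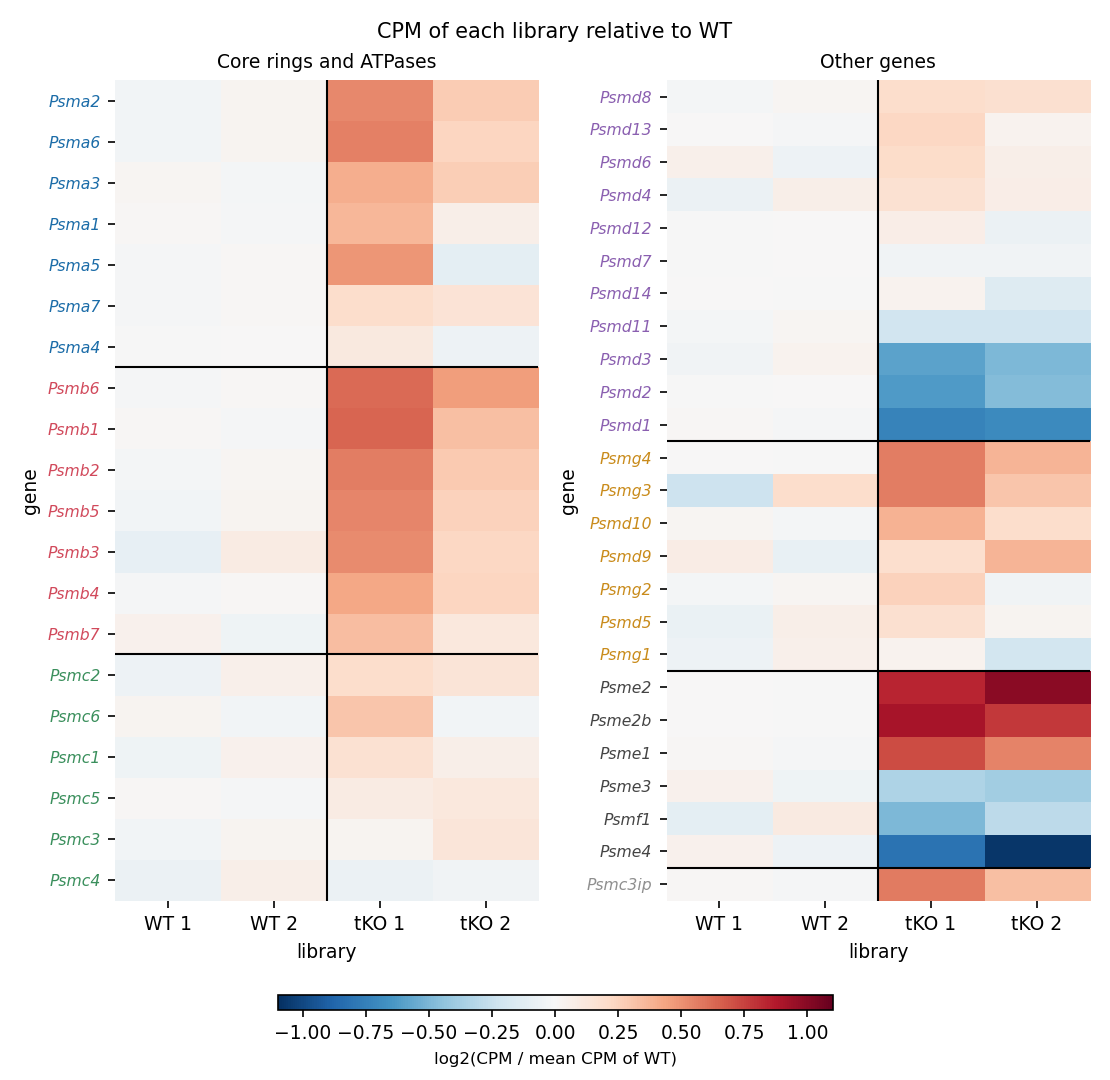
Log2 of the CPM in each library over the mean CPM of the 2 WT libraries (colour, red above and blue below) for the 45 tested genes (vertical axis) in the 4 libraries (horizontal axis), grouped by subcomplex. The core genes are redder in Mek1/2-tKO replicate 1 than in replicate 2, while Psmd1, Psmd2, Psmd3 and Psme4 are blue in both.

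The catalytic genes of the ring are Psmb6 (caspase-like site), Psmb7 (trypsin-like site) and Psmb5 (chymotrypsin-like site). Psmb6 (chromosome 11, 70525367 to 70527858) had 247 and 252 CPM in WT and 384 and 342 CPM in Mek1/2-tKO, 0.54 higher on the log2 scale (adjusted p = 5.72e-05 by the quasi-likelihood test of edgeR, standard error 0.08). Psmb5 (chromosome 14, 54614119 to 54618022) had 121 and 126 CPM in WT and 180 and 148 CPM in Mek1/2-tKO (log2 fold change 0.40, standard error 0.10, adjusted p = 0.00305 in edgeR). Psmb7 (chromosome 2, 38588036 to 38644087) had 184 and 172 CPM in WT and 225 and 193 CPM in Mek1/2-tKO (log2 fold change 0.23, standard error 0.09, adjusted p = 0.0354 in edgeR). In each of these genes both Mek1/2-tKO libraries were above both WT libraries, as they were in 39.5% of all tested genes. Psmb6 and Psmb5 passed in every alternative that refitted the counts, and Psmb7 did not with library size alone (0.15) or without WT replicate 1 (0.28), WT replicate 2 (0.19) or Mek1/2-tKO replicate 1 (0.12). After the length step the values were 0.14 for Psmb6, 0.05 for Psmb5 and -0.03 for Psmb7. With the exon length trend out in its place they were 0.29, 0.03 and 0.22, so that the value of Psmb7 depended on the length used. The other subunits of the ring are structural, and among them Psmb1 moved most (0.49, standard error 0.09).

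The promoters of Psmb5, Psmb6 and Psme4 are shown because they hold the core of the antioxidant response element, TGACNNNGC, the kind of site through which the factors Nfe2l1 and Nfe2l2 raise proteasome genes. The windows run from 250 bases before to 50 bases after the start of the gene and come from RefSeq (GRCm38.p6). They lie at chr14:54617946-54618245 on the minus strand for Psmb5, chr11:70525107-70525406 on the plus strand for Psmb6 and chr11:30771525-30771824 on the plus strand for Psme4. Capitals mark the motif, read on the opposite strand in Psme4.
Psmb5: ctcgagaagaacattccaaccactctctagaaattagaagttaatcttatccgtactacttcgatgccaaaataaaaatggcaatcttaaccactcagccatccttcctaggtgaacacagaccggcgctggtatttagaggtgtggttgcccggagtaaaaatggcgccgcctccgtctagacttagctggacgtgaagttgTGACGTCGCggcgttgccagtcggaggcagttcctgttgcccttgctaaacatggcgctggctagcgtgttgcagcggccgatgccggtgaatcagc
Psmb6: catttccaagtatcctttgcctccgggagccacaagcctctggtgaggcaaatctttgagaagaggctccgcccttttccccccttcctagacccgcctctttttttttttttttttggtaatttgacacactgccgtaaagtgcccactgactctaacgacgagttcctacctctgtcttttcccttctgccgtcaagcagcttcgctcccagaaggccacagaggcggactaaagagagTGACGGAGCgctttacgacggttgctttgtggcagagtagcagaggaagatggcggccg
Psme4: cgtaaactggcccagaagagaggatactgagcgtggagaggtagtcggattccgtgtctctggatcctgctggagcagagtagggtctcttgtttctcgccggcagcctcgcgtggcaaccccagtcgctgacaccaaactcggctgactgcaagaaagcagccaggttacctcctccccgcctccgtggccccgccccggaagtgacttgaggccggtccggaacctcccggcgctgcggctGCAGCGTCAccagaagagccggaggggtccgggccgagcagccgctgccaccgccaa
The 3 genes with this motif shown here did not share a direction, since Psmb6 and Psmb5 rose and Psme4 fell. Promoter windows were found for 39 of the 47 genes, 42 windows in all, and 6 of the 42 (14.3%) held the motif on either strand, beside 12.4% of 32851 promoter windows of all genes. Of the tested genes, the 6 with the motif (Psmb5, Psmb6, Psmc6, Psmd9, Psmd12 and Psme4) had log2 fold changes from -0.94 to 0.54. The CCAAT motif was in 33.3% of the 42 windows (37.4% of all), and the E-box CACGTG in 7.14% (7.15% of all). A match is a description of the letters and not of binding.

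Set beside their immunoproteasome counterparts, the constitutive catalytic genes rose by less in sum. Psmb5, Psmb6 and Psmb7 added up to 552 and 550 CPM in WT, against 789 and 683 CPM in Mek1/2-tKO, 1.34 times the WT mean. Psmb8, Psmb9 and Psmb10 added up to 794 and 807 CPM in WT, against 1302 and 1186 CPM in Mek1/2-tKO, 1.55 times. All 3 immunoproteasome genes rose at any fold change, Psmb10 (log2 fold change 1.23) and Psmb9 (0.68) past both thresholds and Psmb8 (0.32) not. Per length of transcript, the ratio of Psmb10 to Psmb7 was 0.616 and 0.674 in WT and 1.23 and 1.36 in Mek1/2-tKO, 2.01 times higher. The ratio of Psmb9 to Psmb6 was 0.703 and 0.692 in WT and 0.775 and 0.755 in Mek1/2-tKO, and that of Psmb8 to Psmb5 was 1.69 and 1.67 in WT and 1.49 and 1.69 in Mek1/2-tKO, where the groups overlapped. With 2 libraries in each group the smallest two-sided p of an exact permutation test is 0.333, which is the value for the pairs of Psmb10 and Psmb9, and it was 0.667 for that of Psmb8. Without Mek1/2-tKO replicate 1 Psmb9 fell under the fold change threshold (0.57).

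**Figure D4:**
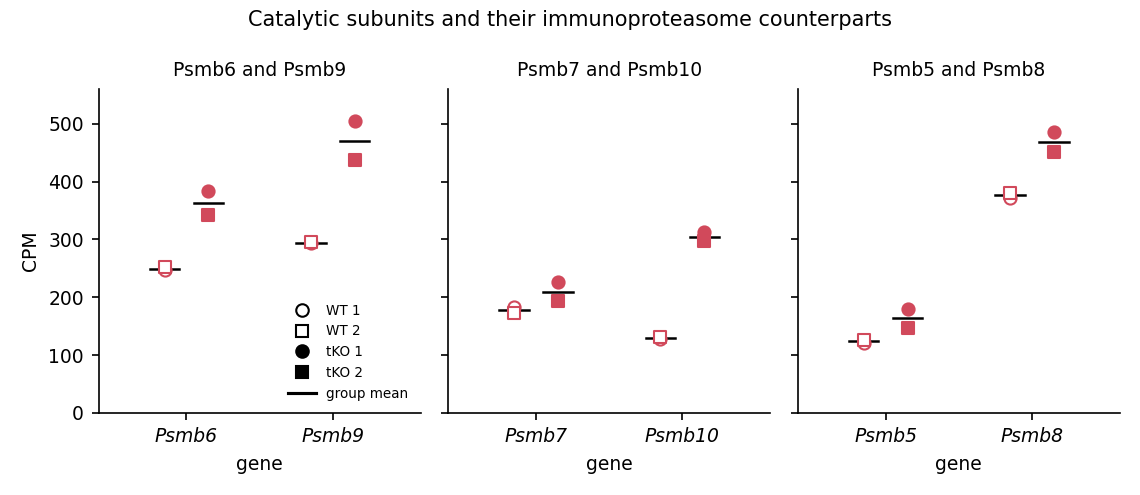
CPM of each catalytic gene and of its immunoproteasome counterpart (vertical axis) in the 4 libraries, open symbols for WT and filled for Mek1/2-tKO, with bars at group means. Psmb10 moves from below Psmb7 in WT to above it in Mek1/2-tKO.

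The ATPase ring, the motor that unfolds substrates, moved little. Its 6 genes (Psmc1 to Psmc6) summed to 1470 and 1529 CPM in WT, against 1618 and 1579 CPM in Mek1/2-tKO. In edgeR's quasi-likelihood test 0 of the 6 passed at any fold change, where 27.8% of all tested genes were higher and 27.2% lower. Psmc2 had the highest value (log2 fold change 0.17, standard error 0.08, adjusted p = 0.0741 in edgeR), with 213 and 230 CPM in WT and 254 and 245 CPM in Mek1/2-tKO. Psmc4 had the lowest (-0.05), with 227 and 249 CPM in WT and 228 and 232 CPM in Mek1/2-tKO, and its groups overlapped. The standard errors of the 6 lay between 0.07 and 0.10, and 1 of the 6 (Psmc2) had an unadjusted p under 0.05. DESeq2 also called 0 of the 6 and had 0 at an unadjusted p under 0.05, while Psmc2 passed with a filter of 10 counts in every library, and Psmc1, Psmc2 and Psmc6 passed when Mek1/2-tKO replicate 2 was left out. With the length trend out, 4 of the 6 were below 0 (median -0.03).

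The 11 non-ATPase subunits of the regulatory particle that the symbol rule takes split, and the 3 with the longest transcripts fell most. The lid subunit Sem1 (0.66) and the ubiquitin receptor Adrm1 (0.31), which rose, fall outside the rule. They are not in the counts and sums of this group and are given below. Their sum was 2805 and 2841 CPM in WT and 2560 and 2504 CPM in Mek1/2-tKO. At any fold change 4 genes were lower and 1 was higher in edgeR's quasi-likelihood test, where 27.2% of all tested genes were lower and 27.8% higher. Psmd1 (chromosome 1, 86064387 to 86139151), a large scaffold at the base of the particle, had 250.4 and 247 CPM in WT and 149.98 and 154 CPM in Mek1/2-tKO. Its log2 fold change was -0.71 (standard error 0.07, adjusted p = 2.91e-06 in edgeR), a 1.64-fold decrease that passed both thresholds in every alternative that refitted the counts. Psmd2, the other large scaffold and the dock for shuttle proteins that deliver ubiquitinated substrates, had 470.4 and 475 CPM in WT and 307 and 340 CPM in Mek1/2-tKO (log2 fold change -0.55, adjusted p = 4.23e-05 in edgeR). Psmd3, a subunit of the lid, had 368 and 389 CPM in WT and 251 and 269 CPM in Mek1/2-tKO (-0.54, adjusted p = 3.97e-05 in edgeR). In all 3 genes both Mek1/2-tKO libraries were below both WT libraries, as they were in 38.8% of all tested genes. Psmd2 and Psmd3 were just under the fold change threshold, and both passed it with library size alone (-0.63 for each) and without Mek1/2-tKO replicate 2 (-0.63 and -0.60).

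After the length step Psmd1, Psmd2 and Psmd3 had log2 fold changes of -0.53, -0.39 and -0.56, so that they were also lower than genes of like length. Psmd11, another lid subunit, was lower by less (-0.21, adjusted p = 0.0485 in edgeR), and it did not pass in DESeq2, with other filters or without either WT library. Psmd8 rose by 0.19 on the log2 scale, from 304 and 313 CPM in WT to 353 and 349 CPM in Mek1/2-tKO (adjusted p = 0.0394 in edgeR), a call that was lost with library size alone (0.10), with no filter (0.18) and without either WT library (0.16 and 0.21). The deubiquitinase Psmd14 (-0.05), the ubiquitin receptor Psmd4 (0.12) and the lid subunits Psmd6 (0.13), Psmd7 (-0.04), Psmd12 (0.004) and Psmd13 (0.14) did not pass. Of these, Psmd7 had 297 CPM in both WT libraries and 289 and 289.8 CPM in the Mek1/2-tKO libraries. With WT replicate 1 or replicate 2 left out, the number of genes lower in this group was 3 in place of 4. Without Mek1/2-tKO replicate 2 the number higher was 4 in place of 1, and the median of the group was 0.03 in place of -0.04.

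The window of Psmd2 is shown because the letters CCGGAAG, a core recognized by ETS factors, several of which act downstream of MEK and ERK, were seen more often in these genes than in all promoters. It lies at chr16:20651402-20651701 on the plus strand (RefSeq, GRCm38.p6), with the motif in capitals as read on the opposite strand.
Psmd2: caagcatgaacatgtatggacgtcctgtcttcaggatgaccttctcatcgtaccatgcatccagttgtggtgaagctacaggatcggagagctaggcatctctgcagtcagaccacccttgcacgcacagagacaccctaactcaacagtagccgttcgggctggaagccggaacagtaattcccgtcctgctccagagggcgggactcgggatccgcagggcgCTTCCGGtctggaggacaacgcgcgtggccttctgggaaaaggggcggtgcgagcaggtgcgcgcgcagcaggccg
Of the 42 windows, 16 (38.1%) held the motif on either strand, beside 8.86% of all 32851 windows, which differ from these in base composition and in kind of gene. Among the regulatory genes 4 of 6 ATPase windows and 6 of 9 non-ATPase windows held it, against 1 of 8 alpha ring and 0 of 4 beta ring windows. The 15 tested genes with the motif had a median log2 fold change of 0.12, from -0.94 to 0.46, and 5 of them were below 0. The 23 without it had a median of 0.28, with 4 below 0. After the length step the medians were -0.07 and 0.02. Binding was not measured in these libraries, and no test was made of this difference.

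The unlike moves of core and cap are seen in their ratio. Core genes summed to 3041 and 3084 CPM in WT and 4149 and 3561 CPM in Mek1/2-tKO. The 17 regulatory genes of the symbol rule, without Sem1 and Adrm1, summed to 4274 and 4370 CPM in WT and 4178 and 4083 CPM in Mek1/2-tKO. The ratio of core to regulatory genes was 0.709 ± 0.00403 in WT and 0.933 ± 0.0856 in Mek1/2-tKO (SD, n = 2 each, exact permutation p = 0.333, two-sided, the smallest that these libraries allow), with values of 0.711, 0.706, 0.993 and 0.872. The groups did not overlap, and Mek1/2-tKO replicate 1 was the farther from WT. The ratio of beta to alpha ring was 1.06 in both WT libraries and 1.19 and 1.17 in Mek1/2-tKO. That of non-ATPase to ATPase genes was 1.91 and 1.86 in WT and 1.58 and 1.59 in Mek1/2-tKO. The beta ring genes have shorter transcripts than most regulatory genes, and after the length step the medians of core and regulatory genes were 0.05 and -0.11. With exon length out in its place they were 0.13 and -0.12.

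**Figure D5:**
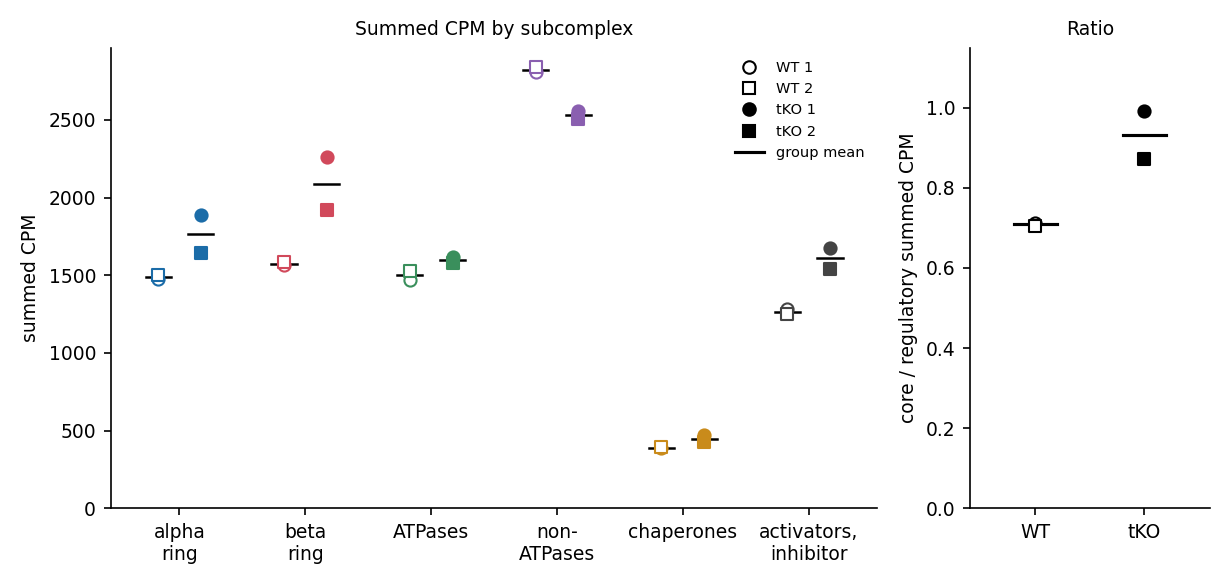
Summed CPM of each subcomplex (left, vertical axis from 0) and the ratio of core to regulatory summed CPM (right) in each library, open symbols for WT and filled for Mek1/2-tKO, with bars at group means. The core rings are higher and the non-ATPase sum is lower in both Mek1/2-tKO libraries, and the ratio goes from 0.709 to 0.933 on average.

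In WT, levels per length of transcript spanned a wider range among core genes than among regulatory genes. The low end of the core range was set by Psma5, Psma3 and Psma2. Per kilobase of the transcript with the longest coding sequence, the 17 regulatory genes lay in WT between 70.4 (Psmd11) and 210.2 CPM per kilobase (Psmc5). This is a 2.99-fold range around a median of 160. The 14 core genes ran from 12.8 (Psma5) to 499 CPM per kilobase (Psma7), around a median of 165. Psma5, Psma3 (16.2), Psmb3, Psmb5 and Psma4 share at least 5% of their 100-base windows with transcripts of other genes. Reads from such stretches may fail to map uniquely, which was not examined. In Psmb5 part of the sharing is with Mir686, which overlaps 12.1% of its exon bases on the same strand. Among the 9 core genes with less sharing the range was from 78.7 (Psma2) to 499 CPM per kilobase. Psma2 stood alone at the low end, and the next gene, Psmb7, had 154. The transcript used for Psma2 has 2911 bases with a coding sequence of 702, and which transcript these cells express was not measured. The order Psma7, Psmb4, Psmb6, Psma1, Psmb2 and Psma6 stood above every regulatory gene. In this order Psma1 (259 ± 2.46) and Psmb2 (251 ± 4.43) lay near each other, and Psmb1 (157 ± 1.62) and Psmb7 (154 ± 6.87) did not differ beyond their spread (SD, n = 2 each). In Mek1/2-tKO the regulatory genes spread more widely, from 48.8 (Psmd1) to 232 CPM per kilobase (Psmd8), a 4.76-fold range. Psmd11, Psmd2 and Psmd1 also share at least 5% of their windows (11, 7.48 and 6.84%). Both ranges of the regulatory genes keep them, and Psmd11 and Psmd1 are the lowest genes of these ranges.

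The assembly chaperones, which are not part of the finished complex, were higher in part. Psmg1 to Psmg4 guide the alpha ring together, and Psmd5, Psmd9 and Psmd10 bind ATPases before the cap is closed. The 7 genes summed to 385 and 396 CPM in WT, against 472 and 423 CPM in Mek1/2-tKO. At any fold change 4 of them rose, where 27.8% of all tested genes did, and 0 passed both thresholds. Psmg4 moved most, from 58.6 and 58.2 CPM in WT to 86.5 and 75.7 CPM in Mek1/2-tKO (log2 fold change 0.47, standard error 0.10, adjusted p = 0.00127 in edgeR). Psmg1 had the lowest value (-0.08), with 74.1 and 79.8 CPM in WT and 79.1 and 66.9 CPM in Mek1/2-tKO, which overlap. Psmg3 (0.44), Psmd10 (0.29) and Psmd9 (0.28) passed by a small margin and did not in DESeq2 or with library size alone. Exons on the other strand overlap 25.5% of the exon bases of Psmd9. Of the 7 genes, 1 passed without WT replicate 1 and 2 passed without WT replicate 2 or without Mek1/2-tKO replicate 1. After the length step the median of the group was 0.009 in place of 0.28, with 3 of 7 genes below 0, and Psmg4, which has a short transcript, had -0.06.

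The activators that replace the regulatory particle on the core moved furthest, in both directions. Psme1 and Psme2 encode the interferon-inducible activator of the cytosol, which opens the core to peptides without using ATP. Psme1 (ENSMUSG00000022216.17, chromosome 14, 55578123 to 55581529) had 387 and 382 CPM in WT and 633 and 563 CPM in Mek1/2-tKO. Its log2 fold change was 0.64 (standard error 0.08, adjusted p = 1.42e-05 in edgeR), a 1.55-fold increase. Psme2 (ENSMUSG00000079197.10, chromosome 14, 55587441 to 55591113) had 7.595 and 7.52 CPM in WT and 13.5 and 15.1 CPM in Mek1/2-tKO (log2 fold change 0.92, standard error 0.19, adjusted p = 8.59e-04 in edgeR). Psme2b (ENSMUSG00000078153.3, chromosome 11, 48945354 to 48946190), a copy of Psme2 without introns, had 333 and 329 CPM in WT and 622 and 569 CPM in Mek1/2-tKO (log2 fold change 0.85, standard error 0.08, adjusted p = 7.15e-07 in edgeR). Psme2 and Psme2b share 44.5 and 52.0% of their 100-base windows, so that the split of reads between them is uncertain, and their sum was 340 and 337 CPM in WT and 636 and 584 CPM in Mek1/2-tKO.

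In all 3 genes both Mek1/2-tKO libraries were above both WT libraries by far more than the replicates differed. By any margin, both were above in 39.5% of all tested genes. Psme1 fell under the fold change threshold with library size alone (0.55) and without Mek1/2-tKO replicate 1 (0.55), and Psme2 and Psme2b passed in every refit. After the length step the values were 0.36 for Psme1, 0.59 for Psme2 and 0.47 for Psme2b. Without these 3 genes the median of the remaining 42 was 0.14 and 0 of them were higher past both thresholds, while 16 were at any fold change. The window of Psme1 is shown because it holds the core of the interferon-stimulated response element, the letters GAAA, any 2 bases and GAAA again, just after the start. It lies at chr14:55578244-55578543 on the plus strand (RefSeq, GRCm38.p6), with the motif in capitals as read on the opposite strand.
Psme1: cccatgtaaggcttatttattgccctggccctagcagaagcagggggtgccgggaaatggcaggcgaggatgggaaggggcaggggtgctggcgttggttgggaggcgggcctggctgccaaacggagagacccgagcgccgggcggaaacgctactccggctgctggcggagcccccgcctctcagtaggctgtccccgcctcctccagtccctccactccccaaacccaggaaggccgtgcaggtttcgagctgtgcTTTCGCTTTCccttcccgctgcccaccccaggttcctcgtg
The motif was in 5 of the 42 windows (11.9%, beside 3.44% of all windows), those of Psme1, Psmb3, Psmd4, Psmd9 and Psmg4. Their log2 fold changes ran from 0.12 to 0.64, with 0 below 0, and their median after the length step was -0.03.

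The other activators and the inhibitor fell. Psme4 (ENSMUSG00000040850.17, chromosome 11, 30771726 to 30880361), the large single-chain activator of the nucleus linked to histone degradation, had 80.8 and 75.2 CPM in WT and 44.3 and 37.1 CPM in Mek1/2-tKO. At -0.94 it had the lowest log2 fold change of the 45 genes (adjusted p = 9.39e-06 in edgeR, standard error 0.11), a 1.92-fold decrease that passed both thresholds in every refit of the counts. Its transcript of 6491 bases is also the longest of the 45, and after the length step the value was -0.42. Psme3, the nuclear relative of Psme1 and Psme2, had 417 and 390 CPM in WT and 319 and 310 CPM in Mek1/2-tKO (-0.36, adjusted p = 0.00102 in edgeR), and it did not pass without WT replicate 1 (-0.31, adjusted p = 0.067 in edgeR). Psmf1, which encodes an inhibitor of the core, had 55.8 and 64.6 CPM in WT and 42.7 and 49.4 CPM in Mek1/2-tKO (-0.39, adjusted p = 0.0117 in edgeR), and it did not pass without WT replicate 2 (-0.28). The transcript of Psmf1 with the longest coding sequence has 1384 bases, and with the transcript length trend out its value was -0.59. Its exons cover 6441 bases, and with the exon length trend out in its place the value was -0.11. The 3 genes that rose and the 3 that fell did not overlap between the groups in any case. Over all tested genes, both Mek1/2-tKO libraries were above both WT libraries in 39.5% and below both in 38.8%. The median of the 6 was 0.14, or 0.04 after the length step and 0.16 with exon length out in its place.

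Psmc3ip, the recombination factor, had 25.6 and 25.3 CPM in WT and 37.8 and 32.1 CPM in Mek1/2-tKO (log2 fold change 0.46, adjusted p = 0.00816 in edgeR). Exons of Mlx on the other strand overlap 21.2% of its exon bases, and the library kit was stranded while the strand setting of the counting is not given in the sources used here. Of the 2 untested genes, the testis subunit Psma8 had 8 and 8 counts in WT and 2 and 4 in Mek1/2-tKO. The thymus subunit Psmb11 had 0 and 4 counts in WT and 0 and 0 in Mek1/2-tKO, and a count of 0 allows up to 3 counts, which covers counting error only.

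Among other genes of the pathway, those that feed the proteasome were mostly lower. Of 10 genes for substrate shuttling and unfolding 7 were lower and 2 higher at any fold change, and 1 (Ubqln2, -0.71) was lower past both thresholds. Over all tested genes 27.2% were lower and 27.8% higher at any fold change, and 16.4% were lower past both thresholds. The shuttle gene Rad23b (-0.44) and the unfoldase genes Vcp (-0.40) and Nploc4 (-0.57) were lower, while Ufd1 (0.25) and Zfand5 (0.27) were higher. After the length step 8 of the 10 were below 0, with a median of -0.16. Rps27a (0.60, past both thresholds) and Ubb (0.54), which encode ubiquitin, rose. Both enzymes that activate ubiquitin fell past both thresholds, Uba1 from 658 and 716 CPM in WT to 336 and 358 CPM in Mek1/2-tKO (log2 fold change -0.98, adjusted p = 2.14e-07 in edgeR) and Uba6 by 0.63 on the log2 scale. With transcript length out Uba1 had -0.66, Ubb 0.36, Ubqln2 -0.48, Uba6 -0.10 and Rps27a 0.12. With exon length out in its place Uba1 had -0.82, Ubb 0.27, Ubqln2 -0.74, Uba6 -0.29 and Rps27a 0.35. How much of the difference of the last 2 was left thus depended on the length used. Uba6 fell short of the fold change threshold without WT replicate 1 (-0.51) or Mek1/2-tKO replicate 1 (-0.57), Ubqln2 without Mek1/2-tKO replicate 1 (-0.52), and Rps27a with library size alone (0.51) and without either of WT replicate 1 (0.58) and Mek1/2-tKO replicate 1 (0.53).

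Of 7 genes for the transcriptional control of proteasome genes, 3 were lower and 1 higher at any fold change, and Nfe2l1 was lower past both thresholds. The shares of all tested genes were 27.2% lower and 27.8% higher at any fold change, and 16.4% lower past both thresholds. Nfe2l1, the factor that raises proteasome genes when the proteasome is impaired, fell from 171 and 175 CPM in WT to 98.1 and 101 CPM in Mek1/2-tKO (log2 fold change -0.80, standard error 0.08, adjusted p = 2.27e-06 in edgeR). Its value after the length step was -0.78. Ddi2, the protease that releases it, was lower by less (-0.46), as was Nfyb (-0.42), a subunit of the factor that binds CCAAT, and Nfe2l2 rose by 0.29 with an adjusted p of 0.0499 in edgeR. The values with length out were -0.20 for Ddi2, -0.36 for Nfyb and 0.34 for Nfe2l2. Ngly1, which removes sugar chains from Nfe2l1, did not pass (-0.15).

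Of 9 proteasome-associated genes tested, 3 were higher and 3 lower at any fold change, and 1 (Sem1) and 2 (Ecpas and Ube3c) past both thresholds. Among all tested genes 27.8% were higher and 27.2% lower at any fold change, and 19.3% and 16.4% past both thresholds. The small lid subunit Sem1 (0.66), the maturation factor Pomp (0.41), which acts on the beta ring, and the ubiquitin receptor Adrm1 (0.31) rose. Ecpas, a scaffold that binds the assembled proteasome, fell from 151 and 145 CPM in WT to 64.98 and 66.4 CPM in Mek1/2-tKO (log2 fold change -1.17, standard error 0.09, adjusted p = 1.03e-07 in edgeR), and it had -0.63 after the length step. The ubiquitin ligase Ube3c (-0.59) and Akirin2 (-0.51), which takes proteasomes into the nucleus, were lower too. With transcript length out Ube3c had -0.16, Akirin2 -0.71, Sem1 0.48, Pomp 0.26 and Adrm1 0.15. Sem1 fell under the fold change threshold with library size alone (0.57) and without Mek1/2-tKO replicate 1 (0.49), and Ube3c with a filter of 10 counts in every library (-0.57) and without WT replicate 2 (-0.56) or Mek1/2-tKO replicate 1 (-0.53). The deubiquitinases Uchl5 (-0.02) and Usp14 (-0.18) did not pass.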

How the data were processed

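RNA of day 3 cultures was sequenced in 4 libraries, 2 of each genotype. The authors trimmed reads (Trimmomatic 0.36 in the submitters' processing notes), mapped them to GRCm38, assigned uniquely mapped reads with featureCounts (Subread 1.5.1) and deposited raw counts per gene, with no normalization. The annotation release and strand setting of the counting are not given in the sources used here. Symbols were matched to 54723 of 54752 Ensembl identifiers, and a row for Paaf1 was not matched.

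Differences were tested in R 4.3.3 by the quasi-likelihood test of edgeR 4.0.16, after filterByExpr and TMM scaling and with a robust fit, with Benjamini-Hochberg adjustment over all 14330 genes tested, and CPM are TMM-scaled. The depth, 16330802 to 18931090 counts, gave standard errors of 0.07 to 0.19 on the log2 scale for the 45 genes. The scripts were tested on simulated data. Alternatives were DESeq2 1.42.0, its size factors, library size alone, other filters, a replicate block, each library left out, and lowess trends (span 0.3, statsmodels 0.14.6) on exon length, with GC content and transcript length added after the data were seen. Transcript lengths and shared windows came from GENCODE M21, and promoters from RefSeq (Python 3.11.15, pandas 2.3.3).

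The genes and lists were chosen with earlier results of these data known. Named with values in every library were the 3 catalytic genes, those past both thresholds, and the highest and lowest of each subcomplex. Psmd2, Psmd3, Psmd7, Psme3, Psmf1 and the genes of other lists given with values were added after their values were seen. No gene set test was run. Results for some genes of the pathway lists are not reported here.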

Additional observations from a re-analysis of the deposited data

How the results depend on the processing

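Groups of 2 libraries limit these results more than depth does. Of the 26 genes that passed at any fold change, 15 passed in every alternative that refitted the counts, and the calls of Psmd9, Psmd10, Psmd11 and Psmg3 were lost with DESeq2. The 2 genes lower past both thresholds became 4 with library size alone (Psmd2 and Psmd3 added), a scaling that shifts the median of all tested genes by -0.085. Over fits that left out 1 library each, the genes lower past both thresholds ranged from 2 to 4 and those higher from 2 to 5, those lower at any fold change from 5 to 7, and those higher at any fold change from 11 (without WT replicate 1) to 28 (without Mek1/2-tKO replicate 2). The median log2 fold change of the 45 genes ranged from 0.12 (without Mek1/2-tKO replicate 1) to 0.20, where the reported value was 0.17. It was 0.084 with library size alone, 0.0602 with the exon length trend taken out, 0.0709 with exon length and GC trends taken out, and -0.0296 with the transcript length trend taken out. The last 2 steps were chosen after the data were seen, and the cause was not tested. Direction turned in the median of the ATPases with exon length (-0.0936), exon length and GC (-0.0916) or transcript length (-0.0274) taken out, of the alpha ring with transcript length (-0.0293) of the chaperones with exon length and GC (-0.00128) and of the non-ATPase subunits without Mek1/2-tKO replicate 2 (0.0319). Of the 26 genes that passed, it turned for Psmb7 (-0.0312) and Psmb3 (-0.0347) with transcript length, for Psmd10 with exon length and GC (-0.0264), for Psmd11 with exon length (0.0602) and with GC added (0.0709), and for Psmg4 with exon length (-0.0375), GC added (-0.00128) or transcript length (-0.0557). Among the 19 that did not pass, 11 turned with transcript length, 7 with exon length, 7 with GC added and 8 in at least 1 refit. The labels number the replicates 1 and 2 in both genotypes, but nothing says that a number pairs libraries, and deviations of same-numbered libraries correlated at -0.026 across genes. The replicate block gave a median of 0.17, with 20 genes higher at any fold change in place of 19 (Psma1 added), and changed no other call of the 45 genes.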
